A study of Mus musculus with 5 samples.

Results

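Non-cycling nuclei of muscle stem cells were described in mouse hindlimb muscle at 4 ages, and in fetal muscle that lacks Cacna1s. A nucleus was taken as a member when it held at least 2 unique molecules (UMIs) of Pax7, the transcription factor that defines these cells, and no UMI of Mki67 or Top2a, genes of dividing cells. Non-cycling here means only that no UMI of Mki67 or Top2a was found. The 4 fiber genes Ttn, Neb, Trdn and Ryr1 together also had to stay below 1.5% of its UMIs, or below 4% in the adult. This gave 182 of the 21154 nuclei that passed the filter on 400 to 25000 UMIs, under 10% mitochondrial UMIs and under 70000 counts in open chromatin peaks. The KO library, from E18.5, held 64 of them, and the WT libraries 26 (E14.5), 48 (E18.5), 29 (P5) and 15 (adult). All 15 adult members were also below the 1.5% limit. The members were thus chosen by measured UMIs of Pax7, the fiber genes, Mki67 and Top2a, and differences in those genes between members and other nuclei are description only.

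The study asked how the multinucleated muscle fiber matures and what happens when excitation-contraction coupling is lost. Each group was 1 library, made from hindlimb muscle without skin and bone and pooled over animals. KO fetuses were Cacna1s-/- at E18.5 (26 hindlimbs pooled). Their allele deletes coding sequence of the L-type calcium channel subunit Cav1.1 in every cell. WT animals were taken at E14.5 (56 hindlimbs), E18.5 (14), P5 (8) and as adults (4). All groups were of the C57BL/6N strain. RNA and open chromatin were read from the same nuclei with the 10x Multiome assay. Nuclei had been sorted by PCM1, a protein of fiber nuclei, and equal volumes of both sorts went into each library, so shares of all nuclei follow the sort. Nothing was tested between groups, since each group has 1 library, and all intervals are 95% intervals for counting error only.

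Muscle stem cells, also called satellite cells, lie between the fiber and its basal lamina and carry Pax7. They divide during fetal and neonatal growth, give rise to myoblasts that fuse into fibers, and then enter a resting state that depends on Notch signalling from the fiber and on the calcitonin receptor Calcr. Fgfr4, a fibroblast growth factor receptor, is carried by the same lineage. Extracellular matrix made by the cells themselves forms part of their niche.

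Open chromatin, which the rule did not use apart from a limit on counts, gave sequences with more counts in these nuclei than in the other nuclei pooled. For each region, counts of the members were set against those expected from the other nuclei of the same libraries. Those include Pax7 nuclei with UMIs of Mki67 or Top2a and nuclei with 1 UMI of Pax7, which were not compared by themselves. The central 300 bases of 5 regions are printed from the mouse reference GRCm38 (+ strand, 5′ to 3′), the firmest excess at each of the stem cell genes Pax7, Calcr and Heyl and, from the firmest in the genome, 1 called as a peak in all 5 libraries and the 1 with the most member counts. None overlaps an exon. Capitals mark the E-box CAGCTG, a letter pattern bound by myogenic factors of the MyoD family, and TGGGAA, the core of the pattern bound by the Notch effector RBPJ, which reads TTCCCA on the other strand.
Pax7 intron, chr4:139771233-139771532: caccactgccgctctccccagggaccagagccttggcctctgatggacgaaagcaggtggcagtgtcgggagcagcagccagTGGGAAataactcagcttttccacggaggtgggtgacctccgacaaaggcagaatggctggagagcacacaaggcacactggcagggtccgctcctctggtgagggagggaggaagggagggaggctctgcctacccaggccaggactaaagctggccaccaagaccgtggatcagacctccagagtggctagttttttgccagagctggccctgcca
Calcr intron, chr6:3741191-3741490: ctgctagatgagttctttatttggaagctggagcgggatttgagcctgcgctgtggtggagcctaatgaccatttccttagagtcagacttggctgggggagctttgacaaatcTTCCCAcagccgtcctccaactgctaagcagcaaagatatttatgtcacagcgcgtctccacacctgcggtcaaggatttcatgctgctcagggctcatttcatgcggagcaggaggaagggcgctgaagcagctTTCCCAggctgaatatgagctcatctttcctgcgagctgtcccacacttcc
Heyl upstream, chr4:123228091-123228390: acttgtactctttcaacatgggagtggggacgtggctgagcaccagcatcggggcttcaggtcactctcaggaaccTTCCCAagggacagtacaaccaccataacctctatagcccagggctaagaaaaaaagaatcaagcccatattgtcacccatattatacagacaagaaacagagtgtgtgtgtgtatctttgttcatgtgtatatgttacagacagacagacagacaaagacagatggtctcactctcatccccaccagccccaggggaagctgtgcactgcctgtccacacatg
Adcy2 upstream, chr13:69230549-69230848: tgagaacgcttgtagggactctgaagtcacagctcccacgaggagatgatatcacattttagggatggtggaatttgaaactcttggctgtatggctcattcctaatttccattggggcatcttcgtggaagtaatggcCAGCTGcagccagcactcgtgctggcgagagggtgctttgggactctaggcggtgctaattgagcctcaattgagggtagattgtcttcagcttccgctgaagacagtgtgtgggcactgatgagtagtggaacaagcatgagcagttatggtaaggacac
Edn3 downstream of the start, chr2:174797479-174797778: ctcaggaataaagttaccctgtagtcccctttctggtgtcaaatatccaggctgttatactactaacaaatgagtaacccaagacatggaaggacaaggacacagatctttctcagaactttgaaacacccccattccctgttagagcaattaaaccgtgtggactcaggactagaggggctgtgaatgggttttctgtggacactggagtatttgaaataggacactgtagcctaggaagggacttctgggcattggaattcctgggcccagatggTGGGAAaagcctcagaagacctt
The Pax7 sequence lies 62146 bp into the gene, which runs on the minus strand, and the Calcr sequence 23375 bp into its gene, also on the minus strand. The Heyl sequence lies at -5316 bp from the start of that gene, which encodes a transcription factor induced by Notch. The last pair was named by the nearest gene start, at -231156 bp for Adcy2 (an adenylyl cyclase) and at 37008 bp for Edn3 (endothelin 3), and which gene such a region acts on was not tested.

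Depth differed between the groups. The libraries held 21394846 to 49913899 UMIs. WT members held 120697 UMIs (E14.5), 244853 (E18.5), 112903 (P5) and 18604 (adult), and KO members 442748. Their median per nucleus was 3136.5 UMIs (E14.5), 4324 (E18.5), 3276 (P5), 1060 (adult) and 5189 (KO), so low adult values are the least certain. The median mitochondrial share of UMIs was 0.917% in adult members, against 0.0723% in all adult nuclei that passed the filter. In the KO it was 0.139% against 0.0263%. Members had 0% at E14.5, 0.0310% at E18.5 and 0.0455% at P5. The effect of this difference on the adult and KO ratios was not tested. No barcode of a member was shared between libraries, while any 2 libraries shared 17 to 47 barcodes over all nuclei. A small set of members stood apart. Among the 182, 35 held over 2 times the median UMIs of their library's members, fiber genes at 0.5% of UMIs or more (not used in the adult), or markers of other cell types at 0.75% of UMIs or more, and these carried 24.9% to 44.3% of the members' UMIs per library. Results are therefore given with and without these deep or mixed nuclei, a choice made after the data were seen. The markers were those of the lists summed below, without the fiber list and without Notch3, Erbb3, Ghr and Pnpla2. Fewer calls of these markers without such nuclei thus follow in part from the choice. Without them 22, 37, 24 and 13 members remained in the WT libraries from E14.5 to the adult, and 51 in the KO.

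Pax7, Calcr and Fgfr4 were higher in the members than in the other nuclei of every library, while sums of some other marker lists were higher too. Pax7, which the rule used, had a level, in CPM (its UMIs scaled to 1000000 per library and group), of 514 (E14.5), 609 (E18.5), 709 (P5), 2365 (adult) and 510.4 (KO). The other nuclei of the same libraries had 9.60 to 37.2 CPM. The members' higher adult level is read with the rule in mind, since 2 UMIs are a larger share of a shallow nucleus. Calcr, the receptor of the resting state, had 33.1 CPM (4 UMIs) at E14.5, 172 CPM (42 UMIs) at E18.5, 726 CPM (82 UMIs) at P5 and 1451 CPM (27 UMIs) in adult nuclei. KO members had 58 Calcr UMIs (131 CPM), and the other nuclei of all 5 libraries stayed between 0.903 and 8.75 CPM. Calcr thus ordered the WT stages by age. It was also unevenly spread, with UMIs in 3 of 26, 18 of 48, 13 of 29 and 9 of 15 members from E14.5 to the adult.

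Fgfr4 did not follow that order. Its CPM was 365 (E14.5), 306 (E18.5), 602 (P5), 430 (adult, 8 UMIs) and 269 (KO), against 0.428 to 70.0 CPM in the other nuclei. The adult interval, 186 to 847 CPM, covers the levels of all other groups. Pdgfra, a receptor of mesenchymal cells, had 82.9 CPM (E14.5), 61.3 (E18.5) and 33.9 (KO) in the members, each below the 135 to 145 CPM of the other nuclei of those libraries. At P5 its 7 UMIs came from 1 member. Adult members had 0 UMIs of it, and their depth allows up to 161 CPM. The 14 mesenchymal markers together went the other way in the adult, with 1290 CPM (24 UMIs in 10 of 15 members, 13 of them of the collagen gene Col3a1, and 8 genes at 0) against 489 CPM in the other nuclei. In the remaining libraries they summed to 1582 to 3353 CPM in the members, against 2469 to 7006 CPM in the other nuclei. Adult members also had 1290 against 28.5 CPM of the 9 tenocyte markers, where all 24 UMIs were of Chodl, and 1290 against 429 CPM of the 10 smooth muscle and pericyte markers, where 23 of 24 UMIs were of Notch3, also an identity gene here. KO members had 632 against 387 CPM of the tenocyte markers, with 225 of 280 UMIs from Chodl, and 759 against 464 CPM of the smooth muscle and pericyte markers, with 220 of 336 UMIs from Notch3. The part of other cell types in these sums was not tested. Fiber markers summed to 5075 to 12578 CPM in the members, against 22117 to 124730 CPM in the other nuclei. The myogenic factors of committed cells were sparse. Myod1 had 4, 11, 1 and 0 UMIs from E14.5 to the adult and 5 in the KO, and Myog had 0, 10, 0 and 0 UMIs and 7 in the KO.

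**Figure D1:**
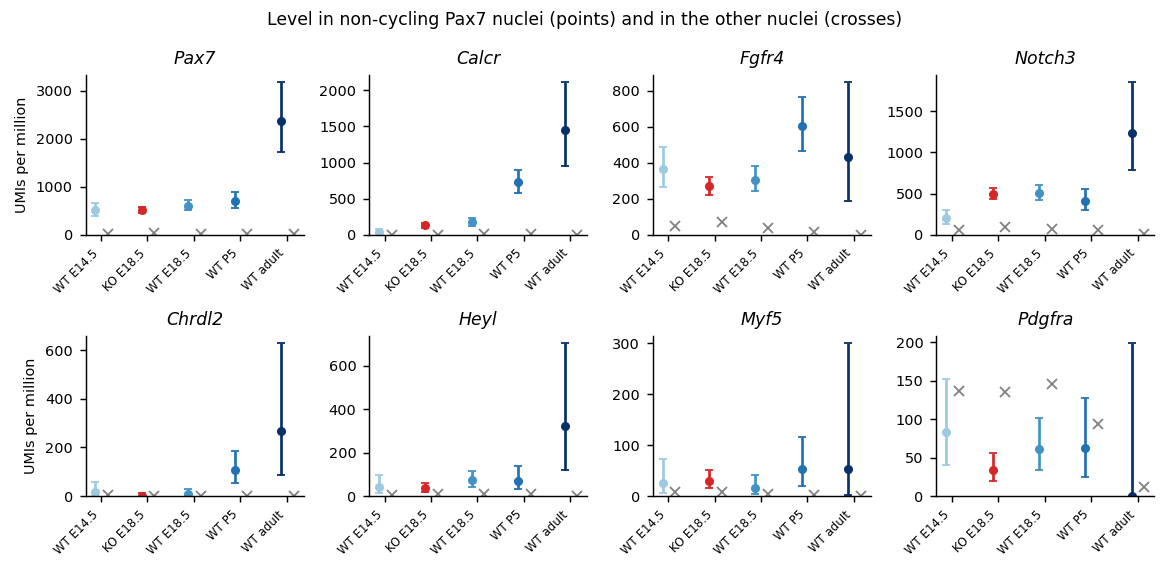
Levels of 8 genes in CPM, with points and 95% Poisson intervals for the non-cycling Pax7 nuclei and crosses for the other nuclei of the same library. Calcr, Chrdl2 and Heyl are highest in the adult members, where Calcr reached 1451 CPM, while Pdgfra is lower in the E14.5, E18.5 and KO members than in the other nuclei.

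Values just inside and outside the Pax7 limit were close to each other at E14.5 and E18.5. Members with 2 UMIs of Pax7 had 376 CPM of Fgfr4 at E14.5 (18 nuclei), and nuclei with 1 UMI that met the rest of the rule had 359 CPM (34 nuclei). At E18.5 the same groups had 264 CPM (19 nuclei) and 209 CPM (30 nuclei), and Calcr had 60.9 and 57.5 CPM. At P5 they had 648 CPM (17 nuclei) and 207 CPM (21 nuclei), and Calcr had 729 and 271 CPM. In the adult Calcr had 10 UMIs in 7 members with 2 UMIs of Pax7 and 3 UMIs in 10 nuclei with 1 UMI, and in the KO 18 UMIs in 24 members and 5 UMIs in 46 nuclei. Nuclei with 1 UMI thus held less Calcr than the members at the limit in the P5, adult and KO libraries, and about as much in WT E18.5.

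The share of Pax7 nuclei without a UMI of Mki67 or Top2a was larger at each later WT stage. It was 21.5% of 121 nuclei at E14.5 (exact Clopper-Pearson interval 14.54 to 29.9), 44.0% of 109 at E18.5 (34.5 to 53.9), 53.7% of 54 at P5 (39.6 to 67.4) and 100% of 15 in adult muscle (78.2 to 100). In the KO it was 27.2% (64 of 235, 21.6 to 33.4), below the 44.0% of WT E18.5, and the intervals do not overlap. KO Pax7 nuclei were also deeper, with a median of 5189 UMIs in the non-cycling and 8609 in the cycling ones, against 4324 and 5877 in WT E18.5. Thinned to 2000 UMIs each, Pax7 nuclei gave 28.1% (E14.5), 52.3% (E18.5), 65.4% (P5) and 100% (adult, 3 nuclei). The thinned KO share was 40.8% (34.4 to 47.4), against 52.3% (42.5 to 62.1) in WT E18.5, and these intervals overlap. Fiber nuclei, which do not divide, also held UMIs of these genes, in 11.5% of KO nuclei above the fiber limit (median 10200 UMIs) and in 7.04% of those of WT E18.5 (median 6971 UMIs). The part of such background in the cycling calls was not tested. Members also held UMIs of a list of 55 other cell cycle genes, with unscaled sums of 396 (E14.5), 689 (E18.5), 325 (P5), 21 (adult) and 1232 (KO). Whether all members were out of the cell cycle was not tested.

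Pax7 nuclei, cycling or not, were 10.5% of the KO nuclei below the fiber limit (9.22 to 11.8) and 4.04% of those of WT E18.5 (3.33 to 4.85). The other WT libraries had 4.03% at E14.5, 2.72% at P5 and 2.09% in the adult. Nuclei with at least 3 UMIs of Pdgfra, which should lack Pax7, reached 2 UMIs of it in 3.34% of KO nuclei (20 of 598, median 9084.5 UMIs), against 1.53% of WT E18.5 nuclei (10 of 655, median 7253 UMIs). The P5 share of 2.72% (2.05 to 3.54) lies within the interval of that background there, 2.58% of 271 nuclei (1.04 to 5.25). In the adult 0 of 22 such nuclei did, which leaves an upper limit of 15.4%, and 25 of 4387 fiber nuclei (0.570%) had at least 2 UMIs. Fewer stem cells and more of the other cells cannot be told apart from these shares.

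**Figure D2:**
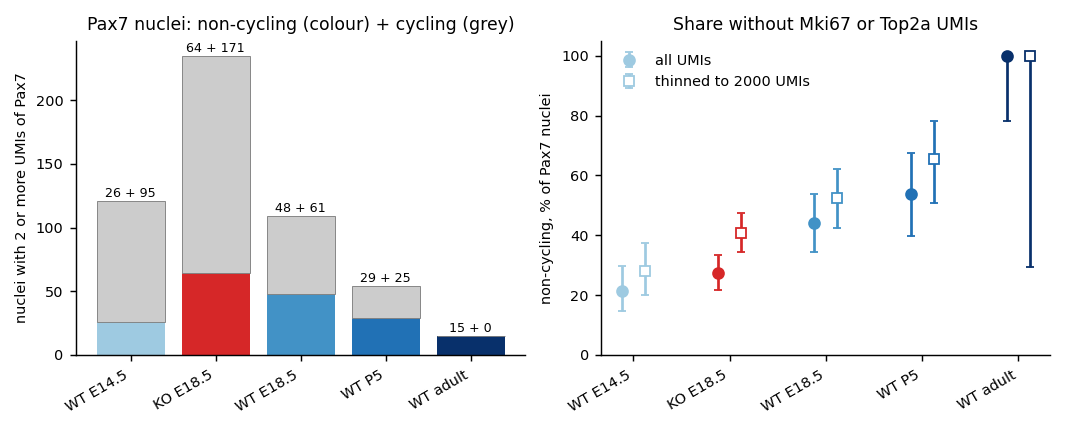
Left, number of nuclei with at least 2 UMIs of Pax7 below the fiber limit, split into non-cycling (colour) and cycling (grey). Right, the non-cycling share in percent with 95% Clopper-Pearson intervals, at full depth (filled) and after thinning to 2000 UMIs (open). The KO share, 27.2%, is below the 44.0% of WT E18.5, and thinning brings them to 40.8% and 52.3%.

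Genes of the niche matrix, several nuclear receptor genes and some stem cell identity genes were higher in the members at E18.5 than at E14.5. Hmcn2, a hemicentin of the extracellular matrix, had 112 UMIs in 32 WT E18.5 nuclei against 1 UMI in 1 WT E14.5 nucleus, that is 457 against 8.29 CPM (55.2-fold, 9.71 to 2199.9). Gsap, a gamma-secretase activating protein, had 75 UMIs in 30 WT E18.5 nuclei and none at E14.5 (at least 12.3-fold). Thsd4, a protein of microfibrils, had 1046 against 141 CPM (7.42-fold, 4.55 to 12.9), and Ror1, a Wnt5a receptor, 894 against 133 CPM (6.75-fold, 4.06 to 12.01). Most members at E18.5 carried these genes and few at E14.5 did, with Thsd4 in 40 of 48 against 7 of 26 nuclei.

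A gene was called when its ratio of CPM was at least 2-fold with an interval that left out 1, among genes with at least 20 UMIs in the 2 sums. By this rule 338 of 4139 genes (8.17%) were higher at E18.5 and 296 (7.15%) lower. Of these, 138 and 85 were called in the same direction without the deep or mixed nuclei, when 7.98% of the genes tested were higher and 6.40% lower. In the list of stem cell identity genes, 4 of 18 measured genes were higher and 0 lower, with and without those nuclei (then of 16). They were Calcr (5.18-fold, 1.88 to 19.9), the laminin-binding integrin Itga7 (3.94-fold, 1.56 to 12.8), dystroglycan Dag1 (3.37-fold, 2.21 to 5.36) and the receptor Notch3 (2.53-fold, 1.62 to 4.09). The list median was 0.51 on the log2 scale, beside 0.05 over all genes, and 0.32 beside -0.02 without the deep or mixed nuclei. Pax7 itself (1.18-fold, 0.875 to 1.62) and Fgfr4 (0.840-fold, 0.572 to 1.25) were not called.

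Of 23 measured genes of laminins, collagens and other niche matrix, 9 were higher and 1 lower at E18.5, and the list median was 0.90 on the log2 scale. Those that stayed without the deep or mixed nuclei were the laminin chain Lamc1 (2.20-fold), Col15a1 (2.67-fold), Col19a1 (2.37-fold) and tenascin C, Tnc (3.70-fold). The collagen VI genes and Dcn, markers of mesenchymal cells, fell under 20 UMIs without them. Markers of mesenchymal cells summed to 3353 CPM in the members at E18.5 and 1582 CPM at E14.5 (2 and 5 of 14 genes at 0). Of 8 measured, 4 were higher and 0 lower, with a median of 1.19 on the log2 scale, above that of the matrix list. Without the deep or mixed nuclei 0 of 3 were higher and 1 was lower. As these markers helped to choose the nuclei left out, that change follows in part from the choice. The part of mesenchymal cells in the matrix counts was not tested. Matn2, a matrilin (12.6-fold), and Cd44, the hyaluronan receptor (6.98-fold), were higher, as was Fndc1, a protein with fibronectin type III domains (15.9-fold). When the deep or mixed nuclei were left out, Cd44 was 4.00-fold, Fndc1 6.24-fold and Col15a1 4.26-fold. The other nuclei had 304 against 33.6 CPM of Fndc1 and 305 against 80.3 CPM of Cd44.

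Several nuclear receptor genes were higher at E18.5. Of 7 measured genes for thyroid, steroid and metabolic receptors 4 were higher and 2 lower, and without the deep or mixed nuclei 4 of 5 were higher and 0 lower. The thyroid hormone receptor Thra was 4.34-fold higher, the orphan receptor Rora 2.30-fold and Esrrg 2.16-fold. Zbtb20, a zinc finger factor, had 3026 against 986 CPM in the members and 1561 against 882 CPM in the other nuclei. Egfr was 3.42-fold higher, the Ras inhibitor Spred1 2.04-fold, the TGF-beta mediator Smad3 3.25-fold and the kinase Prkcq 4.07-fold. Leaving out those nuclei gave 5.35-fold for Egfr, 5.25-fold for Smad3 and 6.39-fold for Prkcq.

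Receptors and adhesion molecules were found on both sides. Of 23 measured genes for adhesion and matrix receptors 6 were higher and 7 lower at E18.5, and 7 and 4 of 19 without the deep or mixed nuclei. Of 17 for receptor tyrosine kinases and Ras feedback 2 were higher and 3 lower (2 and 2 of 14 without those nuclei). Among the lower genes, Itga4, an integrin that binds fibronectin and VCAM1, had 6 UMIs in 1 WT E18.5 nucleus against 32 UMIs in 10 WT E14.5 nuclei (0.0924-fold, 0.0316 to 0.224). The co-receptor Boc was 0.323-fold, the cadherin Cdh11 0.217-fold, Fgfr2 0.428-fold and the growth factor Pdgfc 0.384-fold of the E14.5 level, all also called without the deep or mixed nuclei, when Cdh11 was 0.0761-fold. Lgr5, an R-spondin receptor, had 2 UMIs in 1 WT E18.5 nucleus against 20 UMIs in 11 WT E14.5 nuclei, and is under 20 UMIs without them. The lowest ratios of all belonged to genes of neurons such as Fgf14, whose 143 UMIs at E14.5 came from 3 nuclei, 139 of them from 1. Of 32 measured genes for axon guidance and synaptic adhesion 2 were higher and 17 lower, but without the deep or mixed nuclei 1 of 13 was higher and 2 were lower.

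At P5 the members had less RNA of Igf2bp1 and Hmga2, known from fetal growth, than at E18.5, and more of Pde10a, Slc7a11 and Calcr. Igf2bp1, a fetal RNA-binding protein, had 0 UMIs at P5 and 35 UMIs in 20 WT E18.5 nuclei (at most 0.186-fold). Hmga2, a chromatin protein of growing cells, had 1 UMI in 1 WT P5 nucleus against 39 UMIs in 18 WT E18.5 nuclei, after 505 CPM at E14.5. Pde10a, which breaks down cyclic nucleotides, had 1851 against 147 CPM, in 27 of 29 against 10 of 48 nuclei (12.6-fold, 8.81 to 18.47). Slc7a11, the cystine and glutamate exchanger, had 655 against 49.0 CPM (13.4-fold, 7.22 to 27.0), and Calcr 726 against 172 CPM (4.23-fold, 2.88 to 6.30).

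In all, 212 of 3968 genes (5.34%) were higher at P5 and 284 (7.16%) lower, of which 103 and 121 were called in the same direction without the deep or mixed nuclei (then 5.86% higher and 7.71% lower). Among the leading genes, Pde7b, another phosphodiesterase, was 9.33-fold higher, Etl4 8.95-fold, the exchange factor Plekhg1 8.67-fold, the L-type calcium channel gene Cacna1d 7.75-fold, the GDNF receptor Gfra1 5.31-fold and Fry 4.18-fold. These stayed called without the deep or mixed nuclei, when Pde10a was 45.5-fold, Etl4 20.1-fold and Plekhg1 13.4-fold. Gfra1 was lowest in between, with 456 CPM at E14.5, 81.7 at E18.5 and 434 at P5. Cpt1a, the enzyme that admits fatty acids to mitochondria, had 22 UMIs in 16 WT P5 nuclei against 3 UMIs in 3 WT E18.5 nuclei, and is under 20 UMIs without those nuclei.

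Few identity and Notch genes differed once the deep or mixed nuclei were left out. Of 20 measured identity genes 3 were higher and 0 lower, and 1 of 19 without the deep or mixed nuclei, which was Calcr. The Notch list had 4 of 16 higher and 1 lower, and 1 of 16 and 0 without them, when the ubiquitin ligase Dtx4 remained (2.24-fold). Fgfr4 was 1.97-fold (1.40 to 2.77), just under the limit. In the quiescence list of 17 genes 2 were higher and 3 lower, and 2 and 1 of 14 without those nuclei. The growth arrest gene Gas1 was 2.85-fold higher (4.54-fold without them) and the CDK inhibitor Cdkn1c 0.458-fold, that is 168 against 368 CPM. Nuclear receptors were again among the higher genes, 4 of 9 higher and 0 lower (2 of 6 and 0 without the deep or mixed nuclei). Rora had 5093 against 1928 CPM and Zbtb20 7396 against 3026 CPM, while in the other nuclei Rora had 2859.8 against 855 CPM and Zbtb20 4185 against 1561 CPM.

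Genes lower at P5 included Nnat (neuronatin, 0 against 34 UMIs), the membrane protein Basp1 (0.101-fold, 0.0118 to 0.387), the collagen receptor Itga1 (0.101-fold, 0.0118 to 0.387, and 0.0541-fold without the deep or mixed nuclei), the sodium and calcium exchanger Slc24a3 (0.127-fold) and the ETS factor Etv1 (0.176-fold). The guidance molecules Slit2 (0.217-fold) and Sema3a (0.486-fold), the growth factor Bmp6 (0.207-fold), the receptor Bmpr1b (0.255-fold, 0.401-fold without the deep or mixed nuclei) and the imprinted RNA H19 (0.327-fold) were also lower. The myogenic commitment list had 0 of 11 higher and 6 lower, with Mef2c at 2 UMIs in 2 WT P5 nuclei against 158 UMIs in 12 WT E18.5 nuclei. Without the deep or mixed nuclei 0 of 7 were higher and 1 was lower, and Mef2c had 1 against 6 UMIs. The fiber markers summed to 5075 CPM in the members at P5 and 6567 CPM at E18.5.

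Several imprinted and matrix genes were lower in the adult members than at P5, and a few genes were much higher. Hs6st3, an enzyme that sulfates heparan sulfate, had 77 UMIs in 11 WT adult nuclei against 1 UMI in 1 WT P5 nucleus, that is 4139 against 8.86 CPM (467-fold, 81.4 to 18694), while the other nuclei had 6.32 against 62.2 CPM. Tgfbr3, the co-receptor betaglycan, had 3494 against 381 CPM (9.17-fold, 6.15 to 13.8), with 119 against 293 CPM in the other nuclei. Gpc3 (a glypican), Nrk (a kinase), Plagl1 (an imprinted zinc finger factor) and Dlk1 (an imprinted Notch-like ligand) had 0 UMIs in the adult, against 189, 174, 154 and 149 UMIs in 24 to 28 of the 29 P5 members. Their ratios were at most 0.0963, 0.105, 0.118 and 0.122.

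Over all genes 111 of 1620 (6.85%) were higher in the adult and 114 (7.04%) lower, and 64 and 68 of them were called in the same direction without the deep or mixed nuclei (then 6.86% higher and 8.13% lower). The ratios of all genes had a median of -0.32 on the log2 scale, so ratios here are read against that shift. Scaled to that median, 165 genes were higher and 57 lower. Higher genes included Bmp6 (24 UMIs in 7 WT adult nuclei against 4 UMIs in 2 WT P5 nuclei), the membrane protein Clmn (24 UMIs in 11 WT adult nuclei against 4 UMIs in 3 WT P5 nuclei), Prkcq (7.69-fold), Egfr (3.93-fold) and Foxo3, a factor of the resting state (7.28-fold). Bmp6 and Foxo3 are under 20 UMIs without the deep or mixed nuclei. Bmp6 had been lower at P5 than at E18.5, with 35.4 CPM at P5 and 172 at E18.5. Camk1d (12.01-fold), the Mediator kinase Cdk8 (5.83-fold) and the estrogen receptor Esr1 (6.57-fold) were higher too, and were so in the other nuclei, where Camk1d had 4004 against 617 CPM, Cdk8 1331 against 286 and Esr1 818 against 272 CPM.

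Of the identity list 2 of 12 were higher and 0 lower, Notch3 (2.97-fold, 1.72 to 4.99) and Pax7, which the rule used. Scaled to the median, 5 were higher and 0 lower. Calcr had 1451 against 726 CPM (2.00-fold, 1.24 to 3.12), on the limit and not called, and 1.31-fold without the deep or mixed nuclei. The quiescence list had 4 of 11 higher and 0 lower (2 of 6 and 0 without those nuclei), which were Foxo1, Foxo3, Tgfbr3 and Nfix, a nuclear factor I member (3.47-fold, 1.56 to 7.38, 12 UMIs in 4 adult nuclei, and 5.91-fold without the deep or mixed nuclei). Dtx4 was 2.54-fold. Chrdl2, an inhibitor of BMPs, and the Notch target Heyl were too low to test, with 5 and 6 UMIs in the adult, or 269 and 323 CPM, and 12 and 8 UMIs at P5, or 106 and 70.9 CPM.

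Of 13 measured imprinted growth genes 0 were higher and 7 lower in the adult, and 0 and 5 of 11 without the deep or mixed nuclei. Beside Plagl1 and Dlk1 they were Mest and Zdbf2 (0 against 48 and 42 UMIs), Mirg (0.258-fold, 0.0304 to 0.986), Rian (0.384-fold, 0.228 to 0.611) and Meg3 (0.500-fold, 0.383 to 0.641), and the list median was -1.31, beside -0.32 over all genes. Scaled to the median, 1 was higher and 4 were lower, and Rian and Meg3 also lost their calls without the deep or mixed nuclei, when Mirg was 0.159-fold. Meg3 still had 3601 CPM in the adult members, in 13 of 15 nuclei, when the other adult nuclei had 128 CPM. Dlk1, Plagl1 and Gpc3 were near 0 in the other adult nuclei as well, at 0.380, 4.04 and 14.3 CPM, against 622, 548 and 508 CPM at P5. The other nuclei thus had lower levels of these 3 genes too, while Meg3 was higher in the adult members than around them.

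Matrix genes were lower in the adult, 5 of 15 with 0 higher (4 and 0 of 11 without the deep or mixed nuclei). Versican, Vcan, and Tnc had 0 UMIs, against 73 and 66 at P5, and Col4a2 was 0.199-fold (0.123-fold without those nuclei) and Col5a2 0.0749-fold, of which Col5a2 lost its call without them. Scaled to the median, 4 matrix genes were lower and 0 higher. Mesenchymal markers summed to 1290 CPM (24 UMIs, 8 of 14 genes at 0) in the adult members and 3038 CPM (343 UMIs, 2 of 14 at 0) at P5, with 0 of 7 higher and 1 lower and a median of -0.94 on the log2 scale, and their part in the matrix counts was not tested. Npas3, a transcription factor, had 3 UMIs in 2 WT adult nuclei against 324 UMIs in 27 WT P5 nuclei, the splicing factor Ptbp2 0 against 103 UMIs, Phldb2 1 UMI in 1 WT adult nucleus against 141 UMIs in 24 WT P5 nuclei, the receptor Epha3 0 against 72 UMIs and Esrrg 0 against 82 UMIs. Tead1, the partner of YAP, was 0.409-fold. Genes that were higher at E18.5 than at E14.5 were not all lower here, as Hmcn2 had 1989 against 1036 CPM, Thsd4 1828 against 1895 and Ror1 3548 against 1665 CPM.

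**Figure D3:**
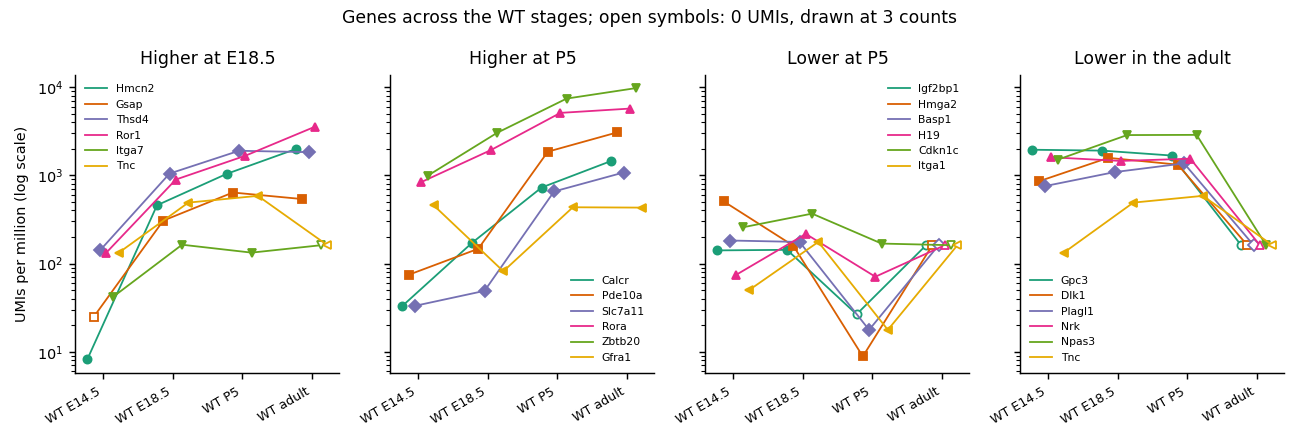
Levels of genes in the non-cycling Pax7 nuclei of the 4 WT libraries, in CPM on a log scale. Open symbols stand for 0 UMIs and are drawn at 3 counts, which in the adult is 161 CPM, so the adult points of Gpc3, Dlk1, Plagl1 and Nrk are upper limits. Hmcn2, Thsd4, Calcr and Pde10a stay high from the stage where they were first high.

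KO members were set against WT E18.5 members, which also served the E18.5 and P5 comparisons above, as WT P5 served those of P5 and the adult. Cacna1s was checked first. It had 0 UMIs in the KO members and 3 in the WT E18.5 members, and 0.278 CPM in the other KO nuclei against 84.5 CPM in the other WT E18.5 nuclei, which matches the labels. The channel gene was near 0 in the members of every stage, with 0, 3, 1 and 0 UMIs from E14.5 to the adult.

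KO members carried more RNA of Eya1, a transcriptional coactivator of muscle progenitors, and less of Hes1. Eya1 had 293 UMIs in 57 of 64 KO members and 68 UMIs in 27 of 48 WT E18.5 members, that is 662 against 278 CPM (2.38-fold, 1.82 to 3.15). Hes1, a direct Notch target, had 17 UMIs in 16 KO E18.5 nuclei against 26 UMIs in 18 WT E18.5 nuclei (0.362-fold, 0.184 to 0.692). Kirrel3, an adhesion protein, had 1520.1 against 319 CPM (4.77-fold, 3.77 to 6.11), and the growth factor Igf2 454 against 196 CPM (2.32-fold, 1.68 to 3.24). Pax7 (0.839-fold, 0.679 to 1.04), Calcr (0.764-fold, 0.505 to 1.16) and Fgfr4 (0.877-fold, 0.652 to 1.19) were not called, and their intervals leave room for a modest difference.

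Over all genes 310 of 6049 (5.12%) were higher in the KO and 298 (4.93%) lower, of which 112 and 106 were called in the same direction without the deep or mixed nuclei (then 4.60% higher and 5.33% lower). The genes named above were among those that stayed, with Eya1 at 2.34-fold and Hes1 at 0.394-fold. Nid1, a nidogen of the basal lamina, was 2.10-fold, the adhesion protein Lsamp 5.82-fold, and Ptprr, a phosphatase, had 39 UMIs in 12 KO members and 0 in WT E18.5. Camk1d was 2.98-fold higher and the mitochondrial leucyl-tRNA synthetase Lars2 4.08-fold, and without the deep or mixed nuclei they were 4.79-fold and 7.35-fold. In the other nuclei Camk1d had 610.1 against 617 CPM and Lars2 245 against 122 CPM.

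The matrix protein gene Fndc1 had 90.3 CPM in the KO and 396 CPM in WT E18.5 (0.228-fold, 0.154 to 0.333), with 93.6 and 304 CPM in the other nuclei. Hmcn2 had 167 against 457 CPM (0.365-fold, 0.269 to 0.494), the glypican Gpc4 104 against 433 (0.240-fold, 0.166 to 0.342) and Vav3, a guanine nucleotide exchange factor, 154 against 547 CPM (0.281-fold, 0.206 to 0.378). Each stayed called without the deep or mixed nuclei. Nol4 (0.143-fold) and the exchange factor Iqsec3 (0.173-fold) were lower as well. Mcam had 1 against 25 UMIs, and Itgb8 4 against 19, and both are under 20 UMIs without those nuclei. Hmcn2, Fndc1 and Vav3 had been higher in WT at E18.5 than at E14.5 (8.29, 24.9 and 257 CPM at E14.5). WT E18.5 is shared by both comparisons, so these are not independent.

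Few genes of the lists were called. Of 22 identity genes 1 was higher and 3 lower, of 17 Notch genes 0 and 1, of 19 genes of commitment and fusion 1 and 0, of 22 quiescence genes 1 and 2, and of 18 imprinted genes 1 and 0. Of 21 genes of calcium channels and calcium handling 2 were higher and 2 lower. Beside 5.12% and 4.93% of all genes, counts of 0 to 3 per list do not set these lists apart. The matrix list had 1 of 27 higher and 4 lower (1 and 1 of 21 without the deep or mixed nuclei), and its median was -0.47 on the log2 scale, beside -0.05 over all genes. Mesenchymal markers summed to 1967 CPM in the KO members and 3353 CPM in WT E18.5 members (1 and 2 of 14 genes at 0), with 0 of 8 higher and 2 lower and a median of -0.87. Tenocyte markers summed to 632 and 764 CPM (3 and 1 of 9 genes at 0), with 0 of 3 higher and 2 lower and a median of -1.43. Of these, 1 of 4 mesenchymal genes was higher and 0 lower without the deep or mixed nuclei, and 0 of 2 tenocyte genes were called. Both marker lists helped to choose the nuclei left out, so these counts depend in part on that choice. The part of mesenchymal cells and tenocytes in the matrix counts was not tested. Fn1 (0.439-fold) lost its call without the deep or mixed nuclei, and Col25a1 (0.490-fold) turned to 1.02-fold to 1.86-fold with other choices of nuclei.

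The genes with the highest KO ratios came from few nuclei. Fgf14 had 188 UMIs in 4 KO nuclei, the fat cell regulator Pparg 174 in 6, Car3 138 in 4, and Acsl1, an acyl-CoA synthetase, 227 in 14 nuclei. The most in 1 nucleus was 155 UMIs of Fgf14, 109 of Pparg, 79 of Car3 and 126 of Acsl1. Without the deep or mixed nuclei they had 0, 12, 2 and 7 UMIs. Adipocyte markers summed to 1482 CPM in the KO members and 809 CPM in WT E18.5 members (1 and 6 of 9 genes at 0), with up to 1.07% of the UMIs of 1 KO nucleus. Macrophage markers summed to 321 CPM and 196 CPM (1 and 7 of 10 genes at 0). Most UMIs of Fgf14, Pparg, Car3 and Acsl1 thus lay in deep or mixed KO nuclei. Pparg is also among the adipocyte markers used to choose those nuclei, so its fall follows in part from the choice.

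**Figure D4:**
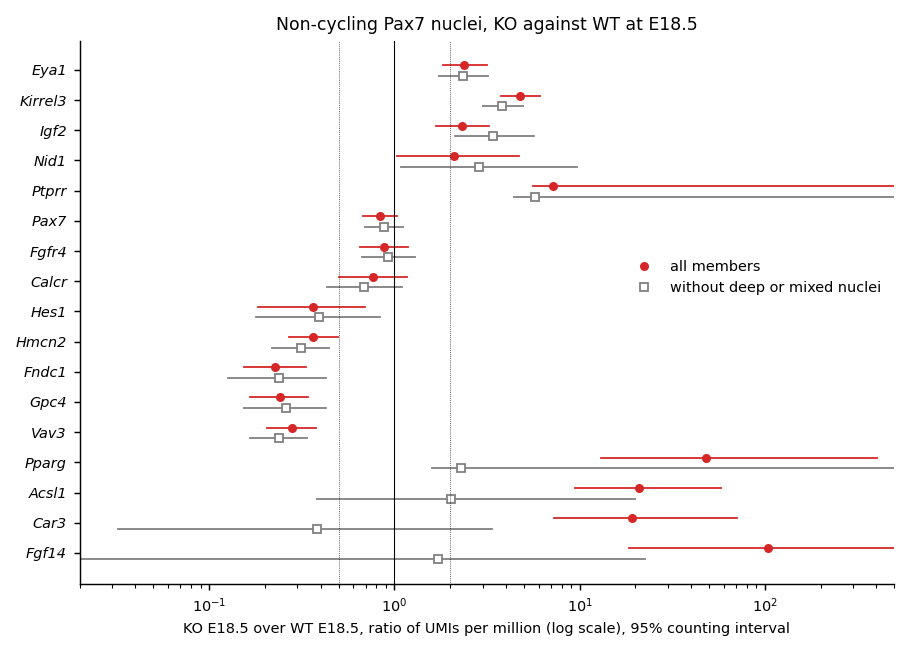
Ratio of CPM in KO E18.5 over WT E18.5 non-cycling Pax7 nuclei on a log axis, with 95% counting intervals, for all members (red circles) and without deep or mixed nuclei (open squares). Dotted lines mark 2-fold in both directions, and intervals are cut at the edges of the plot. Eya1 and Kirrel3 stay above and Fndc1, Gpc4 and Vav3 below these lines in both sets, while Pparg, Acsl1, Car3 and Fgf14 are under 20 UMIs without the deep or mixed nuclei.

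Open chromatin was not used by the rule apart from the upper limit on counts, so it gives a separate view of the same nuclei. At regions in or within 100000 bp of 10 stem cell and myogenic genes, 26 of 83 tested regions had more counts in the members than expected from the other nuclei and 2 had fewer. Over all 22709 tested regions 10.7% were higher and 2.51% lower. The firmest was the Pax7 intronic region printed above, chr4:139770863-139771902, at 6.64-fold (4.86 to 8.86), with 92 counts in 37 of 182 members. Its CPM, here of peak counts, was 34.2 (E14.5), 82.1 (E18.5), 150.2 (P5), 57.8 (adult, 1 nucleus) and 128.7 (KO) in the members, against 5.60 to 24.5 in the other nuclei. The start of Pax7 was 4.03-fold (2.71 to 5.77), and 2 further intronic regions, 86074 and 88563 bp into the gene, were 4.37-fold and 4.73-fold.

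The Calcr intronic region was 6.44-fold (3.22 to 11.5), from 22 counts in E18.5, P5 and KO members, and was called as a peak in 3 libraries only. The start of Fgfr4 was 3.35-fold (2.21 to 4.88), and 4 further regions near it were 2.13-fold to 3.36-fold. For the Notch genes, the upstream Heyl region was 4.00-fold (2.35 to 6.37) and the Heyl start 3.07-fold, and the Notch3 start was 3.00-fold (1.94 to 4.43). The start of Myod1, the factor of committed myoblasts, was not called, at 1.09-fold (0.648 to 1.73), but regions at -61721 and -60580 bp from it were 3.32-fold (1.92 to 5.35) and 2.70-fold (1.70 to 4.07). By library, the 6 Pax7 regions called in all 5 libraries summed to 3.296-fold (E14.5), 3.79-fold (E18.5), 3.92-fold (P5), 5.74-fold (adult) and 2.92-fold (KO), with intervals that overlap. Not all genes followed Pax7. The 11 such Fgfr4 regions summed to 1.23-fold (E14.5), 1.21-fold (E18.5), 1.71-fold (P5), 2.56-fold (adult) and 1.23-fold (KO). Their intervals cover 1 at E14.5, at E18.5 and in the KO. Nfix had 1 of 21 regions higher and 1 lower, and no Myf5 region had enough counts. Without the deep or mixed nuclei 23 of 60 regions were higher and 1 lower, beside 13.7% higher of all regions, and the Pax7 intronic region was 9.30-fold.

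**Figure D5:**
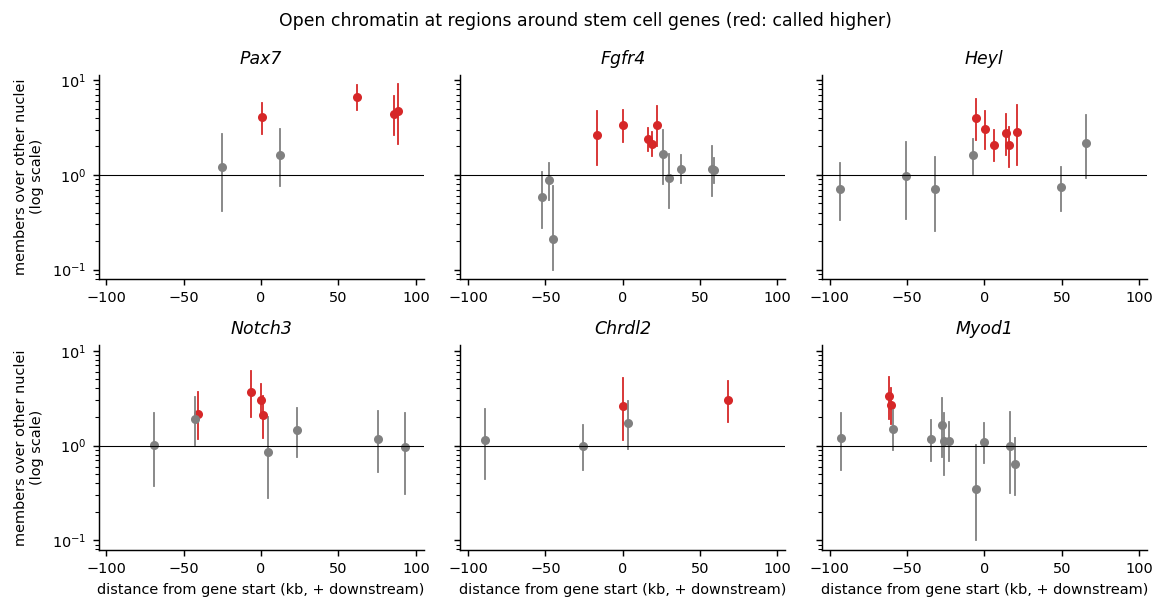
Open chromatin in the non-cycling Pax7 nuclei over the level expected from the other nuclei (log axis, 95% counting intervals) for tested regions around 6 genes, by distance from the gene start in kb along the gene. Red points are at least 2-fold with an interval that leaves out 1. Pax7 and Heyl hold several such regions, while the start of Myod1 lies at 1.09-fold.

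Between stages and genotypes few regions of these genes could be tested. Of those with 20 counts in both groups together and called as peaks in both libraries, 0 were higher and 1 of 18 was lower at E18.5 than at E14.5 (2.99% and 1.25% of all regions), 3 of 24 were higher and 0 lower at P5 than at E18.5 (2.64% and 2.01%), and 0 of 8 were called in the adult against P5 (2.05% and 1.27%). The P5 regions included 2 inside Nfix, with 23 against 4 counts and 20 against 4 counts. In the KO 1 of 26 was higher and 0 lower than in WT E18.5 (2.11% and 2.80% of all regions). The 1 to 3 Pax7 regions tested in each comparison were not called, nor was the 1 Calcr region tested, at P5 against E18.5, at counts that could miss a difference of 2-fold.

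Across the genome 2437 regions were higher in the members. The region named by Adcy2 was 10.4-fold (7.19 to 14.7), with counts in 27 members of all 5 libraries, and that named by Edn3 was 6.86-fold (5.17 to 8.93), with 110 counts in 44 members. The region with the highest lower bound, at 16.1-fold (9.91 to 24.7), lay 238589 bp from the start of Gfra2, a neurturin receptor, and came from E18.5, P5 and adult members. The E-box CAGCTG was found in the central 300 bases of 58.3% of the 2437 regions, against 31.0% of all tested regions, 30.7% of all 136315 regions and 35.7% of the 571 that were lower. TGGGAA on either strand was in 33.9% of the higher regions, against 24.7% of those tested, 28.5% of all regions and 27.3% of those lower. TAAAAATA, a pattern bound by MEF2 factors, was in 1.72% of the higher regions, 1.81% of those tested, 4.46% of all regions and 10.5% of those lower. The AP-1 pattern TGANTCA was in 10.3% of the higher regions, 6.99% of those tested, 12.1% of all regions and 8.93% of those lower. CAGCTG and TGGGAA can share their last and first 2 bases, and both strands were searched. The median GC content was 53.7% in the higher regions, 59.7% in those tested, 50% in all regions and 56% in those lower. Of the 5 printed sequences only that named by Adcy2 holds CAGCTG, and the other 4 hold TGGGAA.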

How the data were processed

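RNA and open chromatin were measured in the same nuclei of 5 libraries, 1 per group, and the titles of the samples gave the groups. The authors deposited raw counts from Cell Ranger ARC 2.0.0, named in the submitters' processing notes, on the mm10 (GRCm38) genome, and reads in introns were counted. Gene rows are UMI counts, and peak rows are cut-site counts in peaks called per library. The handling of reads that fit more than 1 gene was not stated, so overlapping or closely related genes are less certain. Peaks of the 5 libraries were merged for this work, and since most peak counts were even, their intervals used counts divided by 2.

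Member UMIs were summed per library. The ratio of 2 sums, each over its total, has an exact conditional binomial 95% interval, a level an exact Poisson interval and a share a Clopper-Pearson interval. A sum of 0 was replaced by a floor of 3 counts and the ratio given as a bound. Genes needed 20 UMIs in the 2 sums. Intervals cover counting error only. Depth was 21394846 to 49913899 UMIs and 23592784 to 48510096 peak counts per library. No doublet caller was run. Sums and intervals were computed with scipy 1.17.1, numpy 2.4.6 and pandas 2.3.3 under Python 3.11.15 and drawn with matplotlib 3.10.9. The calls were also tried on simulated Poisson counts without clustering of UMIs within nuclei. That trial cannot show how often clustered UMIs, as for Fgf14, lead to a call. Gene starts and exons came from the reference annotation of GRCm38.

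Members and gene lists were chosen with earlier results of these data known. Genes named were Cacna1s, Pax7, Calcr, Fgfr4, list genes with at least 20 UMIs that had the most UMIs or passed 2-fold, and, per comparison, from the 12 highest and 12 lowest by the interval bound nearest 1 among genes with a greater CPM in the members than in other nuclei. Mitochondrial, ribosomal protein and unnamed gene symbols were left out of that ranking. Genes named to show few-nucleus signals or the same gene at another age were added after their values were seen. Results for some genes are not reported here.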

Additional observations from a re-analysis of the deposited data

How the results depend on the processing

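No paired analysis was possible because each group has 1 library, and for the same reason no replicate could be left out. The number of members and of genes past 2-fold moved most with the choice of nuclei and of the count minimum. With at least 3 UMIs of Pax7 the members were 8 (WT E14.5), 29 (WT E18.5), 12 (WT P5), 8 (WT adult) and 40 (KO), 122 genes passed 2-fold in the adult against P5 (225 as reported), and 17 open chromatin regions near the chosen genes were higher (26 as reported). With at least 1 UMI the members were 60, 78, 50, 25 and 110, and 445 genes passed in the adult against P5. With cycling nuclei kept they were 121, 109, 54 and, in the KO, 235, and 1180 genes passed for E18.5 against E14.5, 810 for P5 against E18.5 and 992 for KO against WT E18.5 (634, 496 and 608 as reported). Thinned to 2000 UMIs before the rule, 13, 20, 19, 3 and 39 members gave 127 (E18.5), 121 (P5), 54 (adult) and 159 (KO) genes. Without the deep or mixed nuclei 391 genes passed for E18.5 against E14.5. A minimum of 60 UMIs gave 196, 160, 106 and 199 genes in the same order, and no minimum gave 974 (E18.5), 433 (adult) and 914 (KO). Fewer nuclei or genes tested set these counts by construction. Scaled to the median ratio of all genes, 74.3% of the adult calls were higher, against 49.3% as reported.

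Of 1485 gene ratios recomputed for named genes under the alternatives, 1355 kept their direction and call, 123 lost the call and 7 turned. Of those kept, 88 with the minimum of 60 UMIs, 134 with no minimum and 34 with the 1.5% adult limit could not change. A gene that fell under the minimum was not counted as lost. So 65 of 134 named results were recomputed after thinning, and 119 without the deep or mixed nuclei. Those that turned were Rbpj at P5 against E18.5, at 1.135 with at least 1 UMI of Pax7, Col25a1 in KO against WT E18.5, at 1.862 with at least 1 UMI of Pax7, 1.021 with no filter on nuclei and 1.06 with nuclei holding other markers left out, and, with 3 thinned adult nuclei against P5, Pax7 at 0.9852, Notch3 at 0.7037 and Dtx4 at 0.6667. The cause was not tested. Adult values are limited by 18604 UMIs in 15 nuclei, where a gene with 0 UMIs can still have 161 CPM.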
